A study of Homo sapiens with 6 samples.

Results

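The nuclear-encoded genes of the mitochondrial respiratory chain and the ATP synthase were compared between HCT116 cells with and without forced expression of the small nucleolar RNA SNORA28. Protein-coding genes were taken by the start of their GENCODE symbol (NDUFA, NDUFB, NDUFC, NDUFS, NDUFV, UQCR, COX4 to COX8 and ATP5) together with SDHA, SDHB, SDHC, SDHD and CYC1. The rule gave 99 genes of the 60612 genes listed, of which 38 belonged to complex I, 4 to complex II, 10 to complex III, 19 to complex IV and 20 to the ATP synthase. The remaining 8, NDUFAF1 to NDUFAF8, are assembly factors of complex I that share the NDUFA prefix and are not subunits. The complex IV genes included NDUFA4 and NDUFA4L2, and 2 members were readthrough genes, NDUFC2-KCTD14 and ATP5MF-PTCD1.

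HCT116 is an established human colorectal carcinoma line. Both groups were infected with a lentivirus and collected 72 h after infection, LV-NC with the negative control virus and LV-SNORA28 with the virus that overexpresses SNORA28. Poly(A)-selected RNA was sequenced in 3 libraries a group, and nothing in the labels says that they came from separate cultures, so p-values measure the spread between these libraries. The values were FPKM, fragment numbers corrected for transcript length and for the library's mapped total, and the read depth behind them is unknown. SNORA28 itself was listed at 0 to 0.92 FPKM in LV-NC and at 13.7 to 15.2 FPKM in LV-SNORA28. Of the 8 colon epithelial markers examined, CDX1 was listed at 0 in the 6 libraries, VIL1 did not exceed 0.04 FPKM and CDX2 lay between 3.47 and 4.33 FPKM. The list summed to 762 to 850 FPKM in LV-NC and 784 to 830 FPKM in LV-SNORA28, mostly KRT19, KRT18, KRT8 and EPCAM. The 12 markers of fibroblasts, endothelium and leukocytes summed to 4.30 to 6.64 FPKM in LV-NC and 6.53 to 7.40 FPKM in LV-SNORA28, mostly COL1A1 and CD68, with COL1A2, DCN and LUM listed at 0 in the 6 libraries.

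The respiratory chain passes electrons from NADH (complex I) and succinate (complex II) through coenzyme Q, complex III and cytochrome c to oxygen at complex IV, and complexes I, III and IV pump protons across the inner mitochondrial membrane. The ATP synthase lets the protons flow back and makes ATP. Complexes I, III, IV and the ATP synthase are mosaics: a few subunits are read from the mitochondrial genome and the rest from nuclear genes, whereas complex II is wholly nuclear-encoded.

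The members were mostly abundant transcripts. Their mean over the 6 libraries exceeded 100 FPKM for 6 members, lay between 10 and 100 FPKM for 65 and between 1 and 10 FPKM for 19, and was below 1 FPKM for 9. The highest level was that of ATP5F1B, the catalytic beta subunit of the ATP synthase, at 259 to 378 FPKM. NDUFS5, an accessory subunit of complex I, followed at 247 to 275 FPKM and COX8A, a small subunit of complex IV, at 205 to 267 FPKM, and the ranges of neighbours in this order overlapped. By complex, the median level of the members tested was 45.1 FPKM for complex IV, 34.0 for complex III, 33.5 for the ATP synthase, 22.5 for complex II and 15.4 for complex I, against 5.80 FPKM for the assembly factors of complex I.

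**Figure D1:**
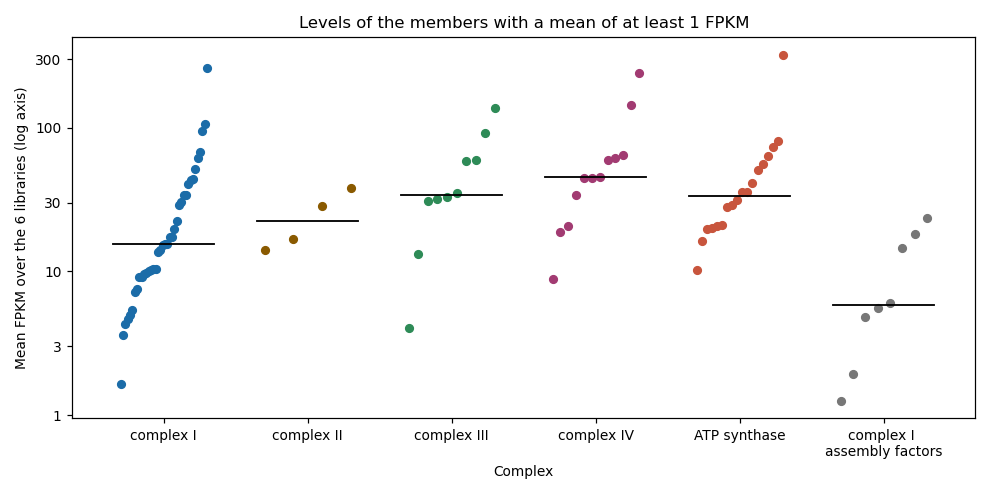
Mean FPKM over the 6 libraries (log axis) of the 90 members with a mean of at least 1 FPKM, 1 point a gene, by complex. Black lines are medians. The assembly factors sit lowest, with a median of 5.80 FPKM, and ATP5F1B sits highest.

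Subunits with tissue-specific isoforms were read almost wholly from the form used outside muscle, lung and testis. COX4I2, COX6A2 and COX7B2 were listed at 0 in the 6 libraries, beside COX4I1 at 40.6 to 48.6 FPKM, COX6A1 at 131 to 164 FPKM and COX7B at 13.3 to 30.5 FPKM. COX7A1, the heart and muscle form, reached at most 0.15 FPKM, against 32.0 to 37.8 FPKM for COX7A2. COX8C reached at most 0.16 FPKM and COX6B2 at most 0.38 FPKM. NDUFA4L2, a paralogue of NDUFA4 known for its induction in hypoxia, lay between 0.25 and 0.63 FPKM, which was 1.12% to 3.45% of the level of both genes together. These genes, ATP5MGL and ATP5MF-PTCD1 make up the 9 members below 1 FPKM, which were not tested.

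LV-SNORA28 was compared with LV-NC over the 12076 genes whose mean reached 1 FPKM, using limma on log2(FPKM + 1) with Benjamini-Hochberg adjustment and a threshold of 0.05. Fold changes below are on this log2 scale, where the change of a gene near 1 FPKM is compressed. Of the 90 members tested, 9 rose and none fell. The 9 were NDUFA8, NDUFB4 and NDUFB6 of complex I, UQCRC2 and UQCRQ of complex III, COX6C of complex IV, and ATP5IF1, ATP5MK and ATP5PB of the ATP synthase. They are 10% of the members tested, whereas 6.81% of all genes tested rose and 2.1% fell, so the share of members called is near the background. Above a mean of 10 FPKM, 9 of 71 members rose (12.7%) against 9.54% of 3532 genes. At an unadjusted limma p below 0.05, 42 members were higher and 0 were lower, against 22.0% and 6.08% of all genes tested (28.0% in either direction). The increases were small, between 0.25 and 0.53, and 0 members met the criterion of an unadjusted p below 0.05 with a fold above 1.5, which 2.58% of all genes met upwards and 1.22% downwards.

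Most members lay a little above the control without passing the test. The fold change was above 0 for 71 of 90 members (78.9%), against 66.7% of all genes tested, and the median was 0.18 against 0.09 over all genes tested. The 3 LV-SNORA28 libraries all lay above the 3 LV-NC libraries for 46 members (51.1%) against 27.0% of all genes tested, and all lay below for 0 members against 8.16%. In bulk RNA, a difference in the number of cells of a kind and in the RNA per cell cannot be told apart.

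The 9 calls depended on the libraries and on the processing. Leaving out LV-NC 1, 2 or 3 gave 2, 4 or 1 members called, and leaving out LV-SNORA28 1, 2 or 3 gave 2, 0 or 0. These counts include 2 genes outside the 9, ATP5F1B and ATP5PO, each called in 1 of these fits. The share of all genes tested that was called in them is not given here. Of the 9, NDUFA8, NDUFB4, UQCRQ and ATP5PB were called in 0 of these fits. Removing a per-library trend of the values on GC content gave 0 called members. At an unadjusted p below 0.05 in either direction, 14 of 90 remained against 23.5% of all genes tested, so this count was not above the background. The members' median was then 0.07 against -0.0041 over all genes tested, and 65.6% against 49.0% lay above 0.

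**Figure D2:**
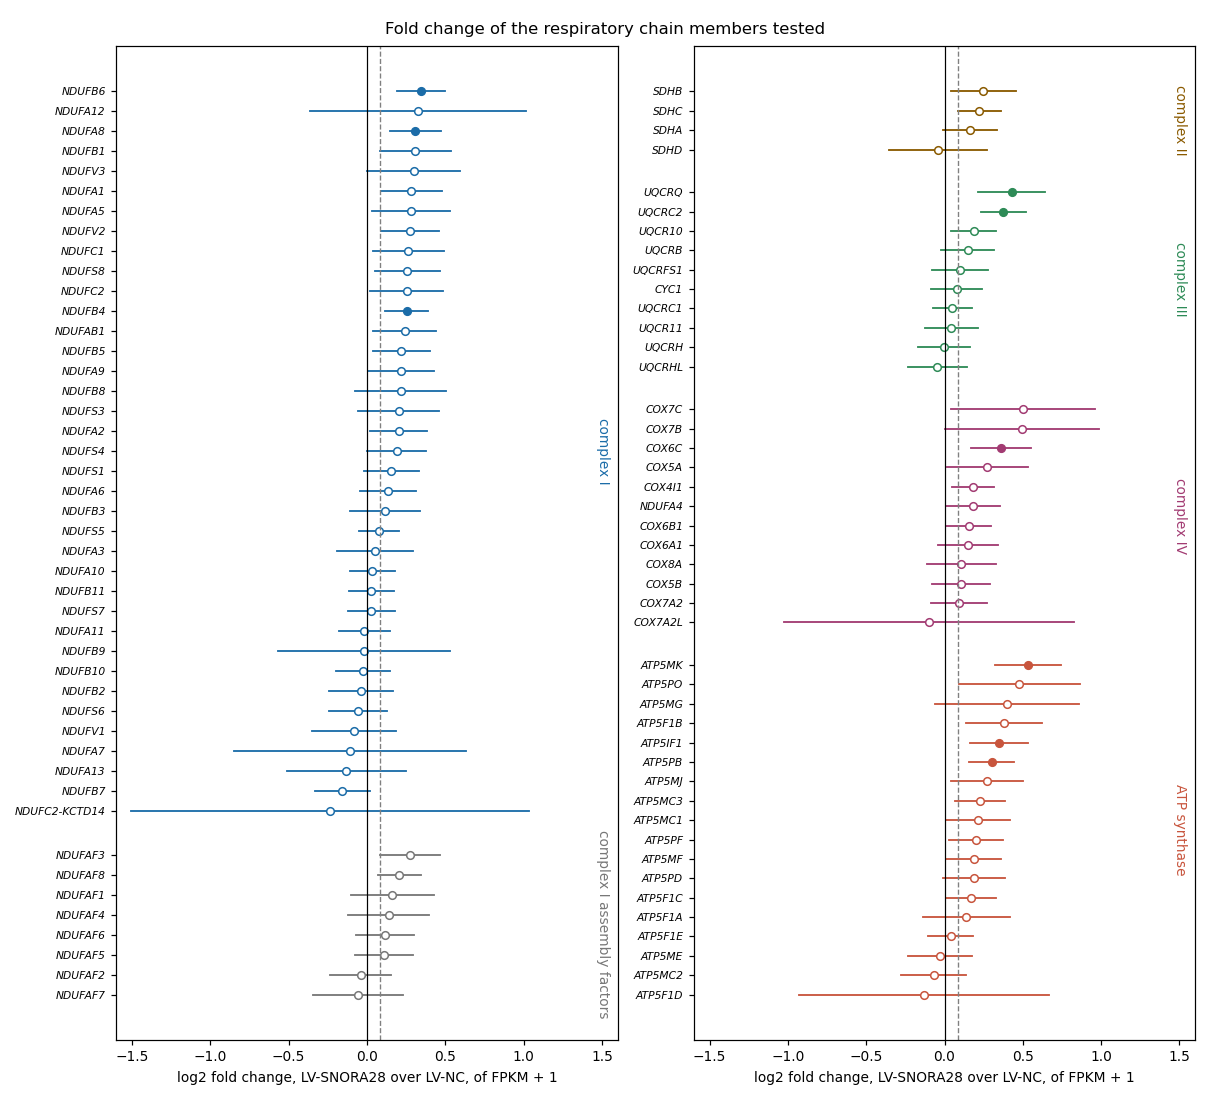
Fold change of FPKM + 1 on the log2 scale, LV-SNORA28 over LV-NC, for 89 of the 90 members tested, 1 row a gene, by complex. Points are limma estimates and bars their 95% intervals. Filled points have an adjusted p below 0.05, and the dashed line is the median of all genes tested (0.09). Most points lie right of 0, and the 9 filled points lie between 0.25 and 0.53.

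Complex I, the NADH dehydrogenase, had 38 members tested, of which 3 rose, 0 fell and 28 lay above 0 (73.7%), with a median of 0.20. Over all genes tested 6.81% rose, 2.1% fell and 66.7% lay above 0, so the share called is near the background. NDUFB6 (ENSG00000165264, chr9:32553001-32573184 on GRCh38, minus strand), an accessory subunit of the membrane arm, measured 13.62, 13.71 and 13.63 FPKM across the LV-NC libraries against 16.36, 18.13 and 18.38 FPKM with LV-SNORA28. The groups were fully separate, and NDUFB6 rose by 0.34 ± 0.06 (SE, adjusted p = 0.0280, limma). NDUFA8 (ENSG00000119421, chr9:122144058-122159779, minus strand), an accessory subunit on the intermembrane-space side, measured 53.54, 54.83 and 55.95 FPKM across the LV-NC libraries against 72.82, 68.64 and 63.23 FPKM with LV-SNORA28. Every LV-SNORA28 library lay above the highest control, and NDUFA8 rose by 0.31 ± 0.07 (SE, adjusted p = 0.0403, limma). NDUFB4 (ENSG00000065518, chr3:120596328-120602507, plus strand), another membrane-arm accessory subunit, measured 12.27, 11.92 and 12.61 FPKM across the LV-NC libraries against 14.43, 15.27 and 14.74 FPKM with LV-SNORA28. Its groups did not overlap either, and it rose by 0.25 ± 0.06 (SE, adjusted p = 0.0459, limma).

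The 7 nuclear core subunits of complex I, which carry the flavin, the iron-sulfur clusters and the quinone site, did not pass the test, and 3 of them had an unadjusted p below 0.05 (28.0% of all genes tested). NDUFS1, which carries iron-sulfur clusters, went from 7.04 ± 0.43 to 7.95 ± 0.43 FPKM (SD, n = 3) with no overlap, a difference of 0.16 ± 0.07 (SE, adjusted p = 0.224, limma). NDUFV1, which binds NADH and the flavin, measured 12.36, 8.91 and 10.51 FPKM across the LV-NC libraries against 10.05, 10.01 and 9.56 FPKM with LV-SNORA28, so the groups overlapped. Of the 7, 4 had groups that did not overlap, all with LV-SNORA28 the higher. The groups were apart in that direction for 27.0% of all genes tested, and in the other for 8.16%.

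Assembly factors were compared with the subunits they help to build. None of the 8 members NDUFAF1 to NDUFAF8 passed the test, their median was 0.13, and 2 had an unadjusted p below 0.05, close to the share of 28.0% over all genes tested. NDUFAF8, with the smallest p, measured 21.22, 22.83 and 21.55 FPKM across the LV-NC libraries against 24.68, 25.41 and 26.05 FPKM with LV-SNORA28, a difference of 0.21 ± 0.06 (SE, adjusted p = 0.0759, limma) with no overlap. Among 9 complex I assembly genes outside the prefix, 2 rose and 0 fell (6.81% and 2.1% of all genes tested). The 2 were TIMMDC1, which helps to build the membrane arm, and NUBPL, which delivers iron-sulfur clusters. Leaving out LV-NC 1 or LV-SNORA28 3 gave 1 call in this list, and leaving out any other library gave 0. NUBPL went from 0.69 ± 0.05 to 1.47 ± 0.15 FPKM (SD, n = 3), a low level at which the unknown depth limits precision.

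Complex II, succinate dehydrogenase, had 4 members, of which 0 passed the test and 2 had an unadjusted p below 0.05 (28.0% of all genes tested). SDHC, a membrane anchor, measured 14.88, 15.16 and 16.04 FPKM across the LV-NC libraries against 18.51, 17.86 and 17.87 FPKM with LV-SNORA28, a difference of 0.22 ± 0.06 (SE, adjusted p = 0.0632, limma). SDHB, the iron-sulfur subunit, measured 32.08, 35.61 and 35.71 FPKM across the LV-NC libraries against 36.74, 43.24 and 43.57 FPKM with LV-SNORA28. For both genes the groups did not overlap, with LV-SNORA28 the higher, as for 27.0% of all genes tested. The groups overlapped for the flavoprotein SDHA and for the second anchor, SDHD. The assembly gene SDHAF1 was the 1 of 4 complex II assembly genes that rose, by 0.42 (adjusted p = 0.0422, limma), beside 6.81% of all genes tested. With 1 library left out, this list had 1 call without LV-NC 2 and 0 without any other library, and it had 0 after quantile normalization, with no filter, and with the length or GC trend removed.

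Complex III, the cytochrome bc1 complex, had 10 members tested, of which 2 rose and 0 fell (6.81% and 2.1% of all genes tested). Its median of 0.09 was close to that of all genes tested. UQCRC2 (ENSG00000140740, chr16:21953288-21983660, plus strand), a core protein on the matrix side, measured 29.69, 30.38 and 31.9 FPKM across the LV-NC libraries against 41.72, 38.49 and 39.9 FPKM with LV-SNORA28. The groups were far apart next to their spread, and UQCRC2 rose by 0.37 ± 0.06 (SE, adjusted p = 0.0179, limma). UQCRQ (ENSG00000164405, chr5:132866630-132868847, plus strand), a small membrane subunit, measured 23.19, 28.02 and 27.3 FPKM across the LV-NC libraries against 34.01, 38.1 and 34.32 FPKM with LV-SNORA28. Its lowest LV-SNORA28 library lay above its highest control, and it rose by 0.43 ± 0.09 (SE, adjusted p = 0.0373, limma).

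The nuclear genes for the electron-carrying subunits of complex III and for the other core protein had groups that overlapped. UQCRC1, the partner of UQCRC2, was at 57.6 ± 1.63 FPKM in LV-NC and 59.6 ± 0.80 FPKM in LV-SNORA28 (SD, n = 3), a difference of 0.05 with a 95% interval of -0.07 to 0.17. UQCRFS1, the Rieske iron-sulfur protein, differed by 0.10 with a 95% interval of -0.08 to 0.28. CYC1, cytochrome c1, differed by 0.08 with a 95% interval of -0.09 to 0.24. The sign of these differences depended on the processing. UQCRC1 and CYC1 lay below 0 after quantile normalization and after removal of the length trend, and UQCRFS1 after removal of the GC trend. These settings, in the order named, also moved the median of all genes tested from 0.09 to -0.0013, -0.0025 and -0.0041. UQCRC1 and CYC1 already lay below the median of all genes tested as deposited. Of 6 complex III assembly genes, 0 passed the test and 1 had an unadjusted p below 0.05 (28.0% of all genes tested).

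Complex IV, cytochrome c oxidase, had 12 of its 19 members tested, of which 1 rose and 0 fell (6.81% and 2.1% of all genes tested). Its median was 0.17. COX6C (ENSG00000164919, chr8:99873200-99893707, minus strand), a small accessory subunit, measured 38.13, 40.89 and 38.67 FPKM across the LV-NC libraries against 45.67, 55.16 and 51.53 FPKM with LV-SNORA28. The groups were fully separate, and COX6C rose by 0.36 ± 0.08 (SE, adjusted p = 0.0442, limma). COX4I1, which takes part in the regulation of the enzyme by ATP, measured 40.64, 43.14 and 41.5 FPKM across the LV-NC libraries against 48.59, 48.42 and 45.74 FPKM with LV-SNORA28, without overlap and with a difference of 0.18 ± 0.06 (SE, adjusted p = 0.0930, limma). COX5A, which sits on the matrix side (0.27, adjusted p = 0.162, limma), and NDUFA4 (0.18, adjusted p = 0.158, limma) were also higher without overlap and missed the threshold. COX7A2L, which joins complexes III and IV into supercomplexes, measured 7.49, 13.04 and 6.43 FPKM across the LV-NC libraries against 4.87, 14.2 and 7.06 FPKM with LV-SNORA28, so its spread within groups exceeded the difference between them. Of 23 complex IV assembly genes, 1 rose and 0 fell (6.81% and 2.1% of all genes tested). The gene was COX14, which helps to start synthesis of the first subunit, and it rose by 0.37 (adjusted p = 0.0305, limma). With 1 library left out, the list had 1 call without LV-NC 2 and 0 otherwise, and it had 0 after quantile normalization, with no filter and with the GC trend removed.

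The ATP synthase had 18 of its 20 members tested, of which 3 rose and 0 fell (6.81% and 2.1% of all genes tested). Its median was 0.21. ATP5MK (ENSG00000173915, chr10:103389041-103396492, minus strand), a small membrane subunit linked to pairing of the enzyme, measured 58.14, 71.59 and 68.64 FPKM across the LV-NC libraries against 92.23, 99.02 and 95.53 FPKM with LV-SNORA28. Every LV-SNORA28 library lay above the controls, and its increase of 0.53 ± 0.09 (SE, adjusted p = 0.0196, limma) was the largest among the members tested. ATP5PB (ENSG00000116459, chr1:111448864-111462773, plus strand), subunit b of the peripheral stalk, measured 49.31, 48.7 and 51.9 FPKM across the LV-NC libraries against 61.01, 59.62 and 64.95 FPKM with LV-SNORA28. The groups were fully separate, and ATP5PB rose by 0.30 ± 0.06 (SE, adjusted p = 0.0314, limma). ATP5IF1 (ENSG00000130770, chr1:28236109-28246906, plus strand), which is not a subunit but the inhibitor that blocks the enzyme from hydrolysing ATP, measured 24.61, 28.23 and 24.04 FPKM across the LV-NC libraries against 32.32, 34.22 and 31.85 FPKM with LV-SNORA28. It was higher in each LV-SNORA28 library than in any control and rose by 0.35 ± 0.08 (SE, adjusted p = 0.0430, limma). MIR1307 overlaps ATP5MK on the same strand and the pseudogene DFFBP1 overlaps NDUFB6, so these 2 values may include reads of another gene.

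The 2 main subunits of the catalytic head did not pass the test as deposited. ATP5F1B measured 258.9, 326.64 and 260.74 FPKM across the LV-NC libraries against 377.96, 358.61 and 358.5 FPKM with LV-SNORA28, without overlap and with a difference of 0.38 ± 0.10 (SE, adjusted p = 0.0656, limma). It passed after quantile normalization (adjusted p = 0.0468, limma) and without LV-NC 2 (adjusted p = 0.0254, limma), and the adjusted p under the other alternatives was up to 0.178. Its partner ATP5F1A, the alpha subunit, measured 40.09, 51.18 and 54.8 FPKM across the LV-NC libraries against 55.1, 53.07 and 51.71 FPKM with LV-SNORA28, with overlap. Of 4 ATP synthase assembly genes, 0 passed the test and 0 had an unadjusted p below 0.05 (28.0% of all genes tested).

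The genes ATP5MC1, ATP5MC2 and ATP5MC3 encode the same mature c subunit of the proton-driven ring. ATP5MC2 gave 43.5% ± 2.08 of their summed FPKM in LV-NC and 38.5% ± 1.38 in LV-SNORA28 (SD, n = 3), without overlap between the groups. ATP5MC1 gave 28.6% and 31.0%, and ATP5MC3 gave 27.9% and 30.5%. The percentages are a description and were not tested.

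**Figure D3:**
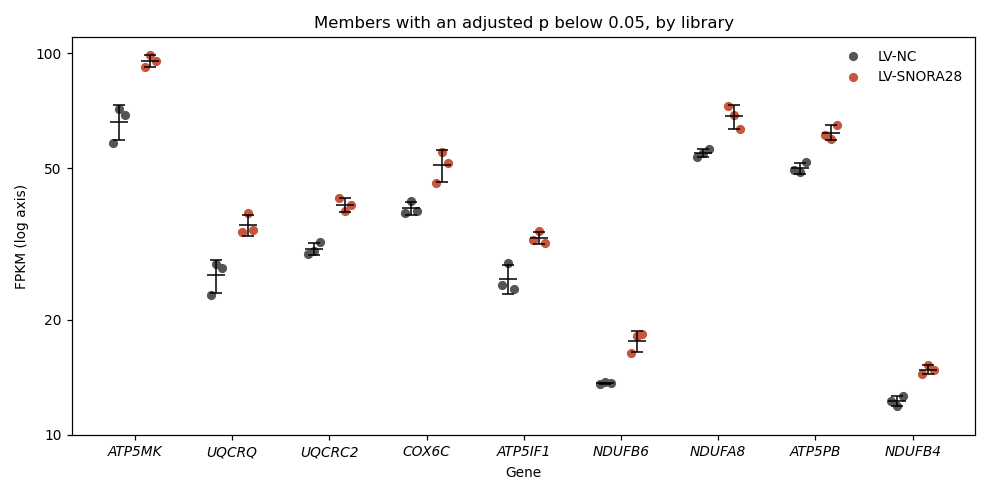
FPKM (log axis) of the 9 members with an adjusted p below 0.05, in order of fold change. Points are libraries, and bars give the mean ± SD (n = 3) of LV-NC and of LV-SNORA28. In each gene the 3 LV-SNORA28 libraries lie above the 3 LV-NC libraries.

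Summed over the members, the ratio of the groups was highest for the ATP synthase. All 99 members summed to 3180, 3514 and 3406 FPKM in LV-NC and to 3789, 3880 and 3718 FPKM in LV-SNORA28, a ratio of means of 1.13 with no overlap. The ratio was 1.21 for the ATP synthase, 1.14 for complex IV, 1.11 for complex II, 1.10 for the assembly factors, and 1.08 for each of complexes I and III. ATP5F1B alone made up 19.3% of the difference, and without it the ratio was 1.11 for the members and 1.17 for the ATP synthase. The FPKM sum of all nuclear genes was also higher in LV-SNORA28 without overlap, with a ratio of 1.02.

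The mitochondrially encoded subunits of the same complexes lay on the other side of the control. Of the 13, all had a fold change below 0, with a median of -0.43, and 4 fell (limma, adjusted p below 0.05) while 0 rose. Among all genes tested, 4017 of 12076 lay below 0, 2.1% fell and 6.81% rose. MT-ND6 fell by 0.77 (adjusted p = 0.00696, limma), MT-ND5 fell by 0.63 (adjusted p = 0.0106), MT-ATP6 fell by 0.62 (adjusted p = 0.0300) and MT-CO1 fell by 0.56 (adjusted p = 0.0127). The calls were 1 after quantile normalization, 0 with no filter on low values, 1 without LV-SNORA28 2 and 3 without any other library. Quantile normalization gives all libraries the same value at each rank, so it can remove a fall shared by very abundant transcripts such as these. The sum of the 13 was 127223, 161594 and 129266 FPKM in LV-NC and 108824, 105468 and 94842 FPKM in LV-SNORA28, a ratio of 0.74. The sum was thus highest in LV-NC 2 and lower in each LV-SNORA28 library than in any control. The mitochondrially encoded sum was 41.3 ± 4.18 times the sum of the nuclear members in LV-NC and 27.1 ± 1.6 times in LV-SNORA28 (SD, n = 3).

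**Figure D4:**
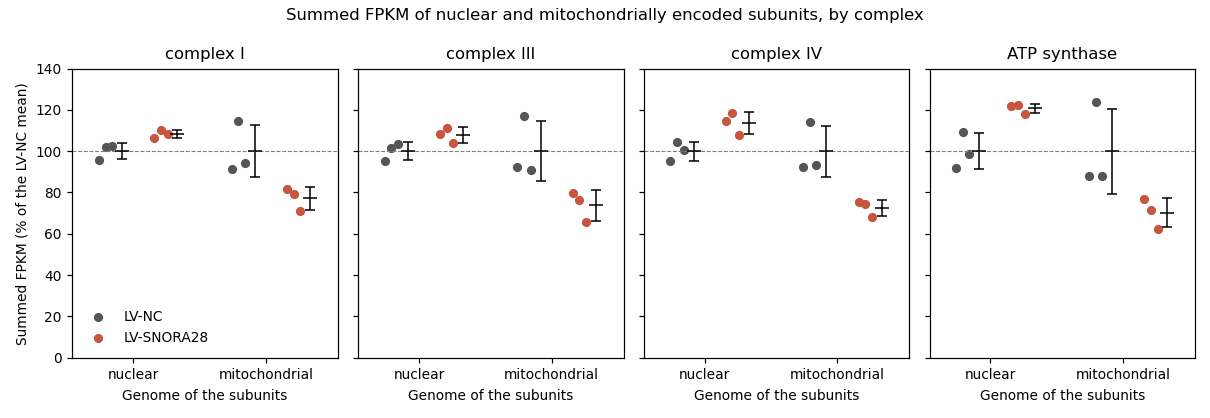
Summed FPKM of the nuclear members and of the mitochondrially encoded subunits of each mosaic complex, as a percentage of the LV-NC mean (dashed line). Points are libraries, and bars give the mean ± SD (n = 3). In each panel the nuclear sums of LV-SNORA28 lie above, and the mitochondrial sums below, those of the LV-NC libraries.

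FPKM is relative to all mapped fragments, so a lower share of mitochondrial transcripts raises the value of every nuclear gene. Rescaling each library to the sum of its nuclear genes left the members' median at 0.15 against 0.06 over all genes tested, with 6 members called (5.09% of all genes tested were called higher). COX6C (adjusted p = 0.0501, limma), NDUFA8 (adjusted p = 0.0511) and NDUFB4 (adjusted p = 0.0688) were then not called. The sum of the members was 1.74% ± 0.07 of the nuclear sum in LV-NC and 1.92% ± 0.03 in LV-SNORA28 (SD, n = 3), with no overlap. By complex this share kept the groups apart for complex I, complex IV, the ATP synthase and the assembly factors, while the groups overlapped for complexes II and III.

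Transcript length and base composition were compared with those of other genes. The members tested had a median exonic length of 2582 bases against 4815 over all genes tested, and a median GC content of 46.6% against 48.6%. Removal of the length trend left a median of 0.09 and 3 members called (3.82% of all genes tested were called higher), and removal of the GC trend left a median of 0.07 and 0 called (3.02%). Quantile normalization left a median of 0.11 and 4 called (3.73%). Over all genes tested the median was -0.0025, -0.0041 and -0.0013 under these 3 settings.

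**Figure D5:**
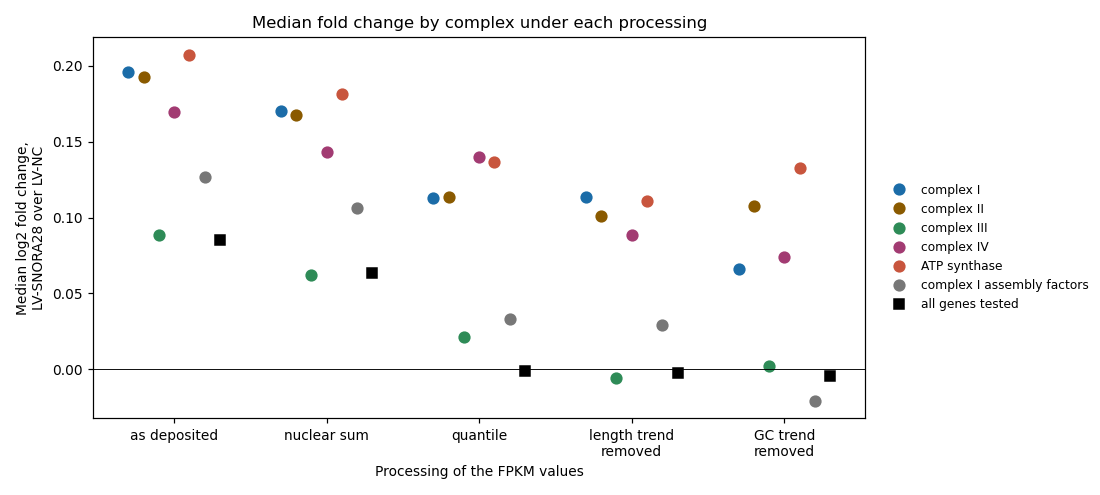
Median log2 fold change of the tested members of each complex (circles) and of all genes tested (black squares) for the FPKM as deposited, scaled to the nuclear sum, quantile-normalized, and with the length or GC trend removed. The ATP synthase and complex II keep a median above 0.1 throughout, complex III falls below 0 when the length trend is removed, and the assembly factors fall below 0 when the GC trend is removed.

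In the pathways that feed the chain, few genes passed the test, as among all genes tested (6.81% rose and 2.1% fell). Of 17 genes for coenzyme Q synthesis and electron carriers, 2 rose and 0 fell, with a median of 0.10. Leaving out LV-NC 3 or LV-SNORA28 2 gave 0 calls in this list, and leaving out any other library gave 1. COQ4, needed for coenzyme Q synthesis, was at 4.71 ± 0.35 FPKM in LV-NC and 7.08 ± 0.31 FPKM in LV-SNORA28 (SD, n = 3), and ETFA, a flavoprotein that carries electrons from fatty acid oxidation, at 12.6 ± 0.23 and 17.7 ± 1.74 FPKM. Cytochrome c, CYCS, measured 28.09, 31.65 and 33.03 FPKM across the LV-NC libraries against 35.37, 39.11 and 37.83 FPKM with LV-SNORA28, and did not pass the test (adjusted p = 0.0835, limma). Of 14 TCA cycle genes, all lay above 0 (66.7% of all genes tested), with a median of 0.22. The 1 that rose was IDH3B, a subunit of the NAD-dependent isocitrate dehydrogenase, by 0.38 (adjusted p = 0.0192, limma). With 1 library left out, 1 TCA cycle gene was called without LV-NC 3 and 0 otherwise. After rescaling to the nuclear sum, 13 of the 14 lay above 0 (62.9% of all genes tested).

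Of the 10 regulators of respiratory genes, 9 were tested, 0 passed the test and 1 had an unadjusted p below 0.05 (28.0% of all genes tested). NRF1, which binds many promoters of respiratory genes, was at 5.21 ± 0.23 FPKM in LV-NC and 5.22 ± 0.44 FPKM in LV-SNORA28 (SD, n = 3). GABPA, the ETS-family factor also known as NRF2 alpha, measured 7.11, 6.54 and 6.57 FPKM across the LV-NC libraries against 7.44, 8.12 and 8.96 FPKM with LV-SNORA28, without overlap (adjusted p = 0.115, limma). PPARGC1A, the coactivator PGC-1 alpha, did not exceed 0.01 FPKM in any library and was not tested.

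The promoters of the members were searched for letters that such factors are known to bind. RefSeq promoter windows (GRCh38.p14, 250 bases before to 50 after the start) were matched for 78 of the 99 members, 74 of them tested and 8 called. The NRF1 letters (GCGCA, any base, then GCGC), on either strand, were in 23% of the windows of tested members, 12.5% of those of all genes tested and 6.28% of all promoters. The YY1 letters AANATGGCG were in 21.6%, 7.67% and 3.37%, and the ETS letters CCGGAAGT in 13.5%, 9.75% and 4.44%. The CCAAT letters were in 33.8% of the windows of tested members and 37.0% of those of all genes tested, and TCAAGGTCA, bound by ERR factors, was in 1 of 74 windows of tested members and 13 of 8814 of all genes tested. Of the 8 called members, 2 held the NRF1 letters, 2 the ETS letters and 0 the YY1 letters.

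The matches in called members are printed here, with the matched letters in capitals and each sequence read 5′ to 3′ on the strand of its gene. The ATP5MK match is at chr10:103396617-103396646 (minus strand) and the UQCRQ match at chr5:132866577-132866606 (plus strand). The NDUFA8 match is at chr9:122159758-122159787 (minus strand), and another match overlaps it. The 3 NDUFB4 matches are at chr3:120596167-120596196, chr3:120596263-120596292 and chr3:120596318-120596347 (plus strand).
ATP5MK, ETS: gtgcaattcttCCGGAAGTgtgggcgggct
UQCRQ, ETS: aatggtatctcCCGGAAGTtacctcacgac
NDUFA8, NRF1: ggatgcgcatGCGCAGGCGCcgtgtggcac
NDUFB4, NRF1, farthest from the start: agagcacttcGCGCATGCGCatatcaccga
NDUFB4, NRF1, middle: ctctgctaacGCGCAGGCGCacttcctgaa
NDUFB4, NRF1, at the start: cctcagaatcGCGCAGGCGCaattgtgccc

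The first NDUFB4 match reads the same on both strands. Tested members that held any of the NRF1, ETS or YY1 letters had a median fold change of 0.16 (36 members), and those without had 0.19 (38 members). A match is a description of the letters in the window, not a measurement of binding.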

How the data were processed

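Per the sample labels and the study's methods, poly(A)-selected, dUTP-stranded libraries of HCT116 cells were sequenced as paired ends. The authors deposited 1 FPKM value per Ensembl gene and library. The submitters' processing notes name cutadapt 1.9, HISAT2 2.2.1, StringTie 2.1.6, DESeq2, edgeR and hg38, without roles. Read depth is unknown. Symbols and coordinates came from GENCODE release 44, which may differ from the annotation behind the values.

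The planned count model needs counts, so log2(FPKM + 1) was fitted with limma 3.58.1 (lmFit, eBayes with trend) in R 4.3.3 for genes whose mean reached 1 FPKM, two-sided, with Benjamini-Hochberg adjustment over all 12076 genes. The fit was tested on simulated data. A count-based alternative was not run. Other values were computed in Python 3.11.15.

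Members, gene lists and motifs were chosen with earlier results of these data known. Named genes were fixed core subunits and isoform pairs and, in each complex and direction, up to 5 members past the threshold or, with none, the member with the smallest p. Genes outside that rule (NDUFS5, COX7B, COX7B2, SDHD, ATP5PO, NUBPL, TIMMDC1, SDHAF1, COX14, COQ4, ETFA, CYCS, IDH3B, NRF1, GABPA, PPARGC1A and the mitochondrially encoded genes) were picked after their values were seen. Alternatives were the scaling, filter, pseudocount, variance trend, length and GC trends, replicate block, each library left out, and the study's threshold. The values of 1 member are not reported here.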

Additional observations from a re-analysis of the deposited data

How the results depend on the processing

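Against 9 members called as deposited, 6 were called after scaling to the nuclear sum, 5 without the variance trend, 4 after quantile normalization, 3 with the length trend removed, 1 with no filter on low values and 0 with the GC trend removed. ATP5F1B, which is not among the 9, was 1 of the 4 after quantile normalization. With 1 library left out, 0 to 4 members were called. Of all genes tested, 6.81% were called higher as deposited and 5.09% after scaling to the nuclear sum. The share was 3.73% after quantile normalization, and 3.82% and 3.02% with the length or GC trend removed. For the other fits it is not given here, so fewer calls among all genes and among the members cannot be told apart. The threshold of an unadjusted p below 0.05 with a fold above 1.5 gave 0. No alternative called a member lower. The deviations of same-numbered libraries of the groups had correlations of -0.04, 0.09 and 0.01. These values show no shared deviation, but cannot tell whether such libraries were handled together. A fit with the replicate number as a block called 2 members and 2 mitochondrially encoded subunits. It called 0 genes of the TCA cycle and of the assembly lists of complexes I, II and IV.

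The median log2 fold change of the members, 0.18 as deposited, was 0.11 after quantile normalization, 0.0903 with the length trend removed and 0.0665 with the GC trend removed. The median of all genes tested, 0.09 as deposited, also moved down, to -0.0013, -0.0025 and -0.0041 in the same order. By complex, the median in that order was 0.11, 0.11 and 0.0660 for complex I and 0.11, 0.10 and 0.11 for complex II. It was 0.0212, -0.00583 and 0.00195 for complex III. The assembly factors gave 0.0330, 0.0293 and -0.0208, and 0.18 with a pseudocount of 0.1. Complex IV gave 0.0888 and 0.0740 with the length and GC trends removed, and the ATP synthase 0.11 with the length trend removed. With 1 library left out, complex I ranged from 0.13 to 0.21.

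Named genes that changed sign had not passed the test. After quantile normalization UQCRC1 was at -0.0177 and CYC1 at -0.0265, and with the length trend removed UQCRC1 was at -0.0456 and CYC1 at -0.0152. With the GC trend removed UQCRFS1 was at -0.0226 and COX7A2 at -0.0375. All genes tested had a median near 0 in these settings, against 0.09 as deposited. With 1 library left out, NDUFV1 ranged from -0.19 to 0.0256, above 0 without LV-NC 1. COX7A2L ranged from -0.48 to 0.20, above 0 without LV-NC 2 or without LV-SNORA28 1. Over the named genes and alternatives, 378 values kept their direction and side of the threshold, 90 lost the threshold, 3 gained it and 9 changed sign. The cause was not tested.

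Unknown read depth limits low values, and 3 libraries a group limit the calls.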

Other observations

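Pseudogene copies of respiratory chain genes were also listed. For 52 members, 195 annotated pseudogenes carried the parent's symbol, and together they summed to 47.9 ± 5.20 FPKM in LV-NC and 43.7 ± 5.49 FPKM in LV-SNORA28 (SD, n = 3). The copies exceeded 5% of the level of parent and copies together for 8 members. SDHA had the highest share, 39.7% on average over the libraries, followed by NDUFA5 with 25.7% and NDUFA4 with 15.5%. Reads of a parent and its copies can be divided between them, and counted with its copies NDUFB4 had a log2 fold change of 0.21 in place of 0.25.

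Some members varied more between libraries of a group than between the groups. ATP5F1D, the delta subunit of the ATP synthase, measured 12.76, 25.4 and 13.27 FPKM across the LV-NC libraries against 22.59, 11.56 and 12.27 FPKM with LV-SNORA28. NDUFA12, an accessory subunit of complex I, lay between 7.29 and 9.48 FPKM in 5 libraries and at 17.27 FPKM in LV-SNORA28 3. NDUFB9, another accessory subunit, reached 31.76 FPKM in LV-NC 2, against 17.35 and 19.41 FPKM in LV-NC 1 and 3. NDUFA7 was at 20.36, 9.06 and 20.36 FPKM in LV-NC. The lowest fold change among the members tested, -0.24, was that of the readthrough gene NDUFC2-KCTD14, whose LV-NC values ran from 0.1 to 3.92 FPKM. These genes were chosen after their values were seen.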
